A study of Mus musculus with 4 samples.

Results

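The BCL2 family genes described here are 10 genes of survival and death signalling in mouse blood progenitors, Bcl2, Bcl2l1, Mcl1, Bax, Bak1, Bcl2l11, Bbc3, Pmaip1, Bid and Bad. Their members were chosen by name, as every array probe that carries the name of one of these genes, which gave 13 of the 39429 probes and 10 of the 31829 gene names on the array. RNA was measured on 4 single-colour arrays, 2 of cells infected with the empty retrovirus (EMPTY) and 2 of cells infected with the miR-195 retrovirus (Mir195). All 4 samples were lineage-negative fetal liver cells of Ebf1-/- mouse embryos on a C57BL/6 background, so both viruses were compared in cells without EBF1, a transcription factor of early B cells. The cells were grown on OP9 stroma with SCF, IL-7 and Flt3-ligand, each at 10 ng/mL, and 100 ng of RNA was labelled per array. The miR-195 virus carried a segment cloned from the genome of a human cell line, so it delivered the microRNA on top of what the cells make. The labels do not say whether the 2 samples of a virus came from separate embryos or cultures, so that the p-values measure the spread between these samples, which may be technical.

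Proteins of the BCL2 family decide at the outer membrane of the mitochondrion whether a cell dies by apoptosis. BCL2, BCL-XL (the product of Bcl2l1) and MCL1 hold the pore-forming effectors BAX and BAK1 in check, and BH3-only proteins such as BIM (Bcl2l11), PUMA (Bbc3), NOXA (Pmaip1), BID and BAD relieve or bypass that check when growth factors are withdrawn or DNA is damaged. In lymphoid progenitors, IL-7 is known to sustain the survival members, and BIM is known to drive death where the cytokine is lacking. Bcl2 is a well known target of miR-15, miR-16 and miR-195, which share a seed, the stretch near the 5′ end of a microRNA that pairs with messenger RNA.

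That shared stretch is shown here because Bcl2 was set beside the other members as a known target of these microRNAs. The messenger RNAs of the members were not searched for sites that pair with it, so whether other members are targets was not tested. Of 1738 mature mouse microRNAs in the RefSeq table (GRCm38.p6), 11 entries with 10 different sequences carried the seed of miR-195a-5p at bases 2 to 8, and 7 of them are printed with the seed in capitals. The mature miR-195a-5p lies at chr11:70235062-70235082 on the plus strand.
mmu-miR-195a-5p: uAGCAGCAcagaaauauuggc
mmu-miR-195b: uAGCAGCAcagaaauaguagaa
mmu-miR-16-5p: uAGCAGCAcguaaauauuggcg
mmu-miR-15a-5p: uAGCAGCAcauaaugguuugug
mmu-miR-15b-5p: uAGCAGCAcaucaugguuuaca
mmu-miR-497a-5p: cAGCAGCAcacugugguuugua
mmu-miR-322-5p: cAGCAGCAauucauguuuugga
Outside the seed the sequences differ from miR-195a-5p to unlike degrees. Aligned from the 5′ end, miR-16-5p matched miR-195a-5p at 19 of its 21 positions, miR-15a-5p at 15 and miR-322-5p at 11. The array held no microRNA measurement that was analysed here.

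The array reads each gene through oligonucleotides of 60 bases, and 3 member genes, Bcl2l1, Mcl1 and Bad, have 2 of them. The oligonucleotides of Bcl2 and Bcl2l11 are shown as examples of genes that rest on a single sequence, as do Bax, Bak1, Bbc3, Pmaip1 and Bid. The dimmer ones of Bcl2l1 and Bad are shown as examples of a second reading. No part of them is marked by capitals.
Bcl2 (A_51_P380013): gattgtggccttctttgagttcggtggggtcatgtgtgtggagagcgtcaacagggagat
Bcl2l11 (A_51_P484880): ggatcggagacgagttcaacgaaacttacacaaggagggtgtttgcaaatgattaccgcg
Bcl2l1 (A_52_P510877): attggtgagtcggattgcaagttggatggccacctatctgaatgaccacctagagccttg
Bad (A_65_P16603): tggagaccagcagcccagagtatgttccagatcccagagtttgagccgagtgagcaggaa
In the GRCm38.p6 annotation of RefSeq the genes lie at chr1:106538176-106714290 (Bcl2), chr2:128126038-128162547 (Bcl2l11), chr2:152758732-152833803 (Bcl2l1) and chr19:6941861-6951905 (Bad).

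Values are given as log2 of the signal minus the 75th percentile of its array, so that 0 is the 75th percentile, and a level is comparable between arrays for 1 probe but not between probes. The signal at that percentile was 902.5 to 1127, and 23658 to 24672 probes per array were well above background by the flag of the scanner software. Mir195 replicate 2 stood apart from the rest. It correlated with the other arrays at r = 0.983 to 0.987 over the tested probes, against 0.994 to 0.997 among the other arrays. On it alone 71 probes read on all other arrays were lost, none of them a member. The closest pair crossed the viruses, EMPTY replicate 2 and Mir195 replicate 1 (r = 0.997). The EMPTY arrays correlated at 0.996 and the Mir195 arrays at 0.987, so the arrays did not group by virus. The summed signal of 10 markers of the OP9 stroma, in multiples of the 75th percentile, was 4.12 and 4.50 with EMPTY and 3.92 and 6.73 with Mir195, with Dcn, Lum and Pdgfra well above background on no array, and its part in the results was not tested. All arrays were on 1 slide, with both EMPTY arrays in the first positions, so that position and virus cannot be told apart. Among the blood progenitor markers (Kit, Flt3, Cd34 and others), 7 of 7 were well above background on all arrays.

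No member gene passed the test between the viruses. Of the 23732 probes tested with limma, 0 passed an adjusted p of 0.05, which is 0% of all probes, and 0 of the 13 member probes did. Leaving out either Mir195 array gave some called probes, none of them a member probe. Such a fit sets a single Mir195 array against the EMPTY arrays, so its calls describe that array. Without Mir195 replicate 1 it was replicate 2, the array that stood apart. All 13 were well above background on all 4 arrays and entered the test. Without the adjustment, 1980 probes had p under 0.05 and none of them was a member probe, where 6.25% of all probes were higher and 2.09% lower at that level. Both arrays given miR-195 exceeded both controls for 2 of the 13 member probes (Bcl2 and Bax), against 23.4% of all probes. Both lay below for 2 others (Bak1 and the brighter probe of Bcl2l1), against 14.4% of all probes. By the brightest probe of each gene, 5 genes had a higher mean and 5 a lower mean with miR-195, and the median log2 fold change was -0.0005, beside 0.01 over all tested probes. The changes ran from -0.23 to 0.15, and 9 of the 10 genes changed by at most 0.2 on the log2 scale in either direction, as did 67.8% of all tested probes.

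**Figure D1:**
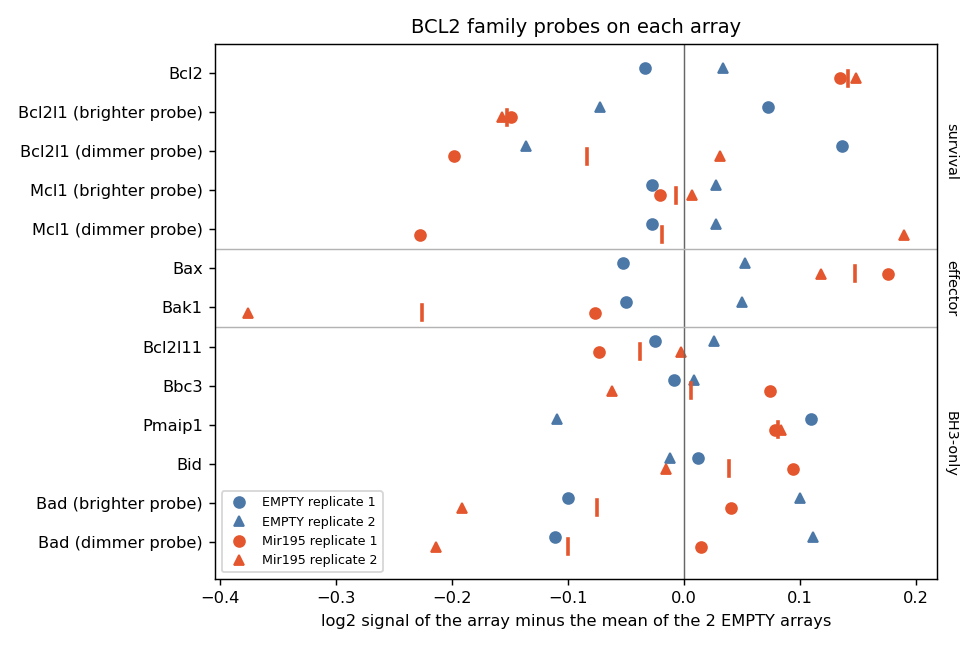
Log2 signal of each BCL2 family probe on each array, relative to the mean of both EMPTY arrays. Circles are replicate 1 and triangles replicate 2, short red lines are Mir195 means, and the genes are grouped as survival genes, effectors and BH3-only genes. Bcl2 and Bax are to the right on both Mir195 arrays, Bak1 and the brighter Bcl2l1 probe to the left, and the other 9 probes overlap.

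Bcl2, a survival gene known as a target of this seed family, did not read lower after scaling in cells given miR-195. Its log2 signal was 2.62 and 2.69 with EMPTY and 2.79 and 2.81 with Mir195. Both controls were thus exceeded slightly by both arrays given miR-195. Before scaling the signal was lower on both Mir195 arrays, at 6252 and 6446 against 6950 and 6648 with EMPTY. The 75th percentile was also lower on them, at 902.5 and 921.9 against 1127 and 1029, so the direction rests on the scaling. The log2 fold change was 0.14 ± 0.12 (SE, 2 arrays per virus), a change of 10.3% in scaled signal, with a limma adjusted p of 0.85. The error that the scanner software assigned to the spot on a single array was 10% of its signal. Over all member probes that error was 10% to 10.3%, so it was not particular to Bcl2. The 95% interval of the signal change ran from -10.5% to 35.9% (log2 -0.16 to 0.44), and its lower bound depended on the fit. Over the 14 alternative settings it was between -25.5%, without EMPTY replicate 1, and -6.87%. Among all tested probes the Bcl2 change stood at percentile 73.3. It was above 0 under all 14 alternative settings, from 0.04 to 0.18, and the arrays of the viruses overlapped under 1 of them, in which arrays were scaled to the median and the change was 0.04. In bulk samples of this kind, fewer cells of a type and less RNA per cell cannot be told apart. The methods describe no sorting of infected cells for the arrays, and the part of uninfected cells in these values was not tested. The array reads messenger RNA alone, and BCL2 protein was not measured in these files.

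The other survival genes gave values on either side of 0. Bcl2l1, which encodes BCL-XL, read 3.03 and 2.88 with EMPTY and 2.81 and 2.80 with Mir195 with its brighter probe. The Mir195 arrays agreed closely with each other and lay just below the lower EMPTY array. The difference was -0.15 ± 0.12 (SE), a signal change of -10.1% with an interval of -28.0% to 12.3% and an adjusted p of 0.845. Without EMPTY replicate 1 it was -0.08. The dimmer probe of Bcl2l1 read -2.30 and -2.58 with EMPTY and -2.64 and -2.41 with Mir195, and its arrays overlapped. The change of that probe was -0.08 ± 0.16, the same sign as the brighter probe, but it turned to 0.05 without EMPTY replicate 1 and to 0.03 without Mir195 replicate 1.

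Mcl1, a short-lived protein on which blood stem and progenitor cells depend, was read by a pair of probes with means near 0 change. Its brighter probe read 3.86 and 3.91 with EMPTY and 3.87 and 3.89 with Mir195. Both Mir195 values lay between the EMPTY values. The change was -0.01 ± 0.11 (SE), with a 95% interval of -0.31 to 0.29 and an adjusted p of 0.995. The dimmer probe of Mcl1 read 1.69 and 1.75 with EMPTY and 1.49 and 1.91 with Mir195, so the Mir195 arrays bracketed the EMPTY arrays. Its mean change, -0.02 ± 0.18, became 0.19 without Mir195 replicate 1 and -0.23 without Mir195 replicate 2.

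The effectors Bax and Bak1, whose products form the pore in the mitochondrial membrane, had the extreme changes among the members, in opposite directions. Bax read 3.29 and 3.40 with EMPTY and 3.52 and 3.46 with Mir195, with both Mir195 arrays higher. As for Bcl2, this rests on the scaling: the unscaled signal was 11042 and 10843 with EMPTY and 10358 and 10165 with Mir195. The change of Bax was 0.15 ± 0.12 (SE), or 10.8% with an interval of -10.8% to 37.5%, and the adjusted p was 0.848. It was 0.10 without EMPTY replicate 1. Bak1 read 3.13 and 3.23 with EMPTY and 3.104 and 2.81 with Mir195, with both Mir195 arrays lower but replicate 1 only just so. Most of the Bak1 difference came from Mir195 replicate 2. The change was -0.23 ± 0.15 (SE), a signal change of -14.5% with an interval of -35.2% to 12.7% and an adjusted p of 0.812, and it shrank to -0.08 without Mir195 replicate 2. In the table normalized by the authors, the arrays of the viruses overlapped for both effectors.

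All 5 BH3-only genes overlapped between the viruses with all arrays and scaling to the 75th percentile. Bcl2l11, which encodes BIM, read -2.07 and -2.01 with EMPTY and -2.11 and -2.04 with Mir195, a change of -0.04 ± 0.12 (SE). The spot was read at 8.77 to 10.3 times the local background. The 95% interval of the signal change was -21.1% to 20.3%. The Bcl2l11 value depended on the processing: it was -0.18 in the authors' table, -0.14 with scaling to the median and -0.12 with quantile normalization, without overlap in each of these, and 0.01 with normexp background correction, with overlap.

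Bbc3 and Pmaip1, which encode PUMA and NOXA and are known p53 targets, stayed close to the EMPTY values. Bbc3 read 2.33 and 2.34 with EMPTY and 2.41 and 2.27 with Mir195, a change of 0.01 ± 0.12. Pmaip1 read 3.18 and 2.96 with EMPTY and 3.15 and 3.15 with Mir195, a change of 0.08 ± 0.13. For Pmaip1 both Mir195 arrays lay between the EMPTY arrays, and the spread was on the EMPTY side.

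Bid, which links death receptors to the mitochondrion once its protein is cleaved, read 1.53 and 1.50 with EMPTY and 1.61 and 1.50 with Mir195. Its change was 0.04 ± 0.12. Bad, whose protein is held inactive by phosphorylation downstream of growth factors, read 3.48 and 3.69 with EMPTY and 3.63 and 3.39 with Mir195 by its brighter probe. The 2 probes of Bad moved in parallel over the arrays: the dimmer one read -0.14 and 0.08 with EMPTY and -0.02 and -0.25 with Mir195. Their changes were -0.08 ± 0.15 and -0.10 ± 0.15, and both turned positive without Mir195 replicate 2, at 0.04 and 0.01. The 5 adjusted p-values of the BH3-only genes were 0.933 to 0.995.

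**Figure D2:**
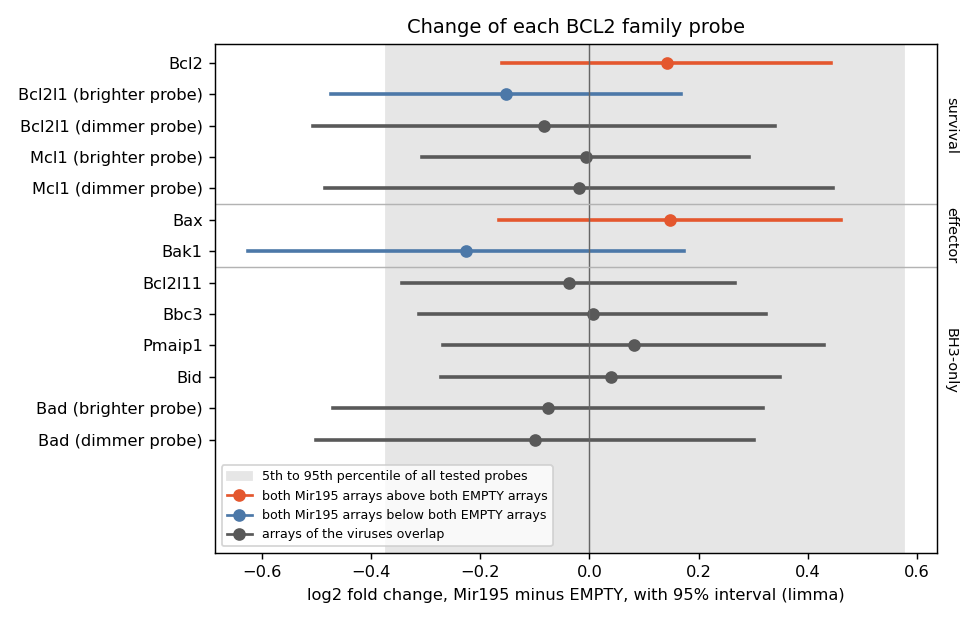
Log2 fold change of each BCL2 family probe, Mir195 minus EMPTY, as points with 95% intervals from limma. Colours mark probes whose arrays do not overlap between the viruses, and the grey band is the 5th to 95th percentile of the changes of all 23732 tested probes, -0.37 to 0.58. Every member interval spans 0, and every point lies inside the band.

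The data bound these changes more than they resolve them. Standard errors of the member probes were 0.11 to 0.18, near the median of 0.15 over all tested probes, where the 95% interval of a probe was typically 0.76 wide on the log2 scale. Over the member probes the intervals reached at the lowest -0.63, for Bak1, and at the highest 0.46, for Bax. A 2-fold change in either direction, which is 1 on this scale, lay outside the interval of every member probe, also under the 14 alternatives, where the intervals reached -0.87 and 0.74. An exact permutation test (two-sided) of a single gene could reach no p below 0.333 with so few arrays.

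Bcl2 was also set against the other members within each array, where the scaling of the array drops out. The signal of Bcl2 relative to that of each of the other 9 genes was taken as a log2 ratio and set to 0 at the mean of the EMPTY arrays. Relative to Bcl2l1, the ratio was -0.11 and 0.11 with EMPTY and 0.28 and 0.31 with Mir195, a mean change of 0.29. Both Mir195 arrays agreed closely in this ratio. Relative to Bak1 the EMPTY arrays gave 0.02 and -0.02 and the Mir195 arrays 0.21 and 0.52, a mean change of 0.37 with replicate 2 far above replicate 1. Relative to Mcl1 the ratio went from -0.01 and 0.01 to 0.16 and 0.14, and relative to Bcl2l11 from -0.01 and 0.01 to 0.21 and 0.15, in values that carry no test. The ratio to Bax stayed near 0, at 0.02 and -0.02 with EMPTY and -0.04 and 0.03 with Mir195. In all, the Bcl2 ratio did not overlap between the viruses, and was higher with Mir195, against 6 of the 9 genes (Bak1, Bcl2l1, Bad, Bcl2l11, Mcl1 and Bbc3) and overlapped against Bid, Pmaip1 and Bax. The same held for 42.4% of the ratios of Bcl2 to each other tested probe, and nothing is read from the count about the members. These ratios share the 1 Bcl2 probe and are not independent of each other.

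**Figure D3:**
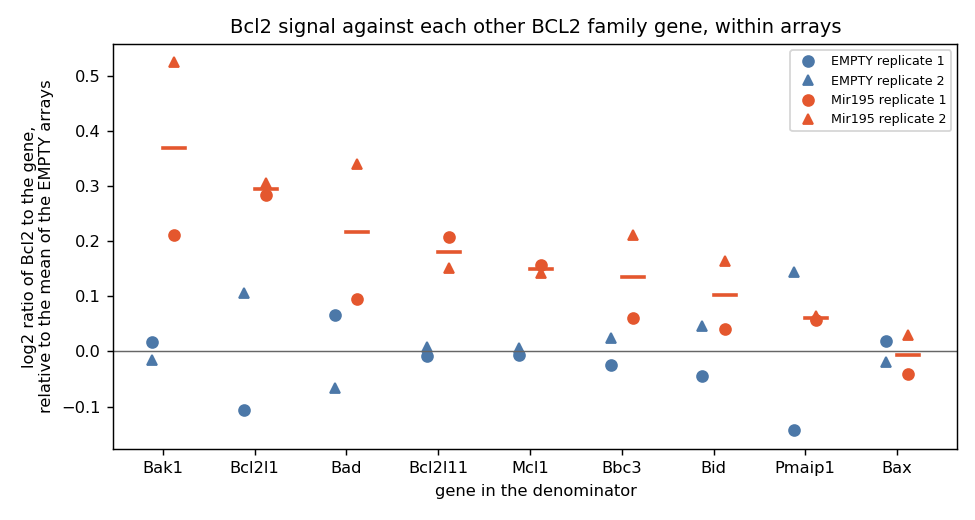
Log2 ratio of the Bcl2 signal to that of each other BCL2 family gene on each array, set to 0 at the mean of the EMPTY arrays. Circles are replicate 1, triangles replicate 2 and red lines the Mir195 means. The ratio to Bak1 changed by 0.37 and that to Bcl2l1 by 0.29, while the ratio to Bax changed by -0.01.

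Averaged over their genes, the balance of survival and death members moved in no single direction. The mean of the 3 survival genes minus the mean of the 7 effector and BH3-only genes, set to 0 over the EMPTY arrays, was 0.02 and -0.02 with EMPTY and -0.06 and 0.06 with Mir195. The Mir195 arrays lay on opposite sides, and the mean change was 0.003.

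Of 14 other BCL2 family genes listed, 12 were on the array, 8 had a probe that was tested and 4 (Bcl2l10, Bcl2l15, Bok and Hrk) were well above background on no array. None of the 8 passed the adjusted threshold, 2 had a higher and 6 a lower mean with miR-195, and the median change was -0.04. Bcl2a1d, one of several nearly identical copies of the survival gene A1, read 3.56 and 3.19 with EMPTY and 2.73 and 2.91 with Mir195. It was lower on both Mir195 arrays, and it was the only BCL2 family gene of either list with an unadjusted p under 0.05. The change was -0.56 ± 0.17 (SE), a signal change of -32.2% with an interval of -50.6% to -6.88%, but the limma adjusted p was 0.54. It ran from -0.74 to -0.38 over the 14 alternatives, with the arrays of the viruses apart in each of them, and the reading may include the other copies of A1. Blood cells of several types express A1, T cells and NK cells among them. Of 7 T cell markers 6 were well above background on all arrays. Among these 6, 5 had a lower mean with miR-195, and 2 an unadjusted limma p under 0.05 (Cd3d at -0.61 and Cd3g at -0.80). Cd5 went the other way, at 0.31, and was higher on both Mir195 arrays. Bcl11b, well above background on 2 arrays, changed by -1.46, also with an unadjusted limma p under 0.05. These markers were named after their values were seen. The summed signal of the list was 43.4 and 49.6 with EMPTY and 46.9 and 44.7 with Mir195, in multiples of the 75th percentile. Between 84.2% and 86.9% of each sum over the 6 was Lck, and the others summed to 6.83 and 6.52 with EMPTY and 6.89 and 6.84 with Mir195. Of 7 NK cell markers 6 had a lower mean, with sums of 18.6 and 14.2 with EMPTY and 12.7 and 14.4 with Mir195. The myeloid markers went the other way. Of the 7 tested, 6 had a higher mean and 1 a lower mean, with sums over the list of 11.1 and 13.4 with EMPTY and 13.9 and 13.9 with Mir195. The part of any of these cell types in the Bcl2a1d values was not tested.

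Bcl2l2, which encodes the survival protein BCL-w and is also known as a target of this microRNA family, read -1.96 and -1.62 with EMPTY and -1.73 and -1.29 with Mir195. Its arrays overlapped, and the change was 0.27 ± 0.21 with an adjusted p of 0.838. Leaving out Mir195 replicate 2 gave 0.05, and leaving out replicate 1 of that virus gave 0.49. Bik, a BH3-only gene, changed by -0.36 ± 0.40 on a dim probe at up to 5.65 times the local background. Bcl2l13, a more distant member of the outer membrane, changed by 0.01 ± 0.16.

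Downstream of the mitochondrion, 20 genes of the apoptosome, the caspases and their inhibitors were tested of 21 listed. None was called, 10 had a higher and 10 a lower mean, and the median change was 0.002. Xiap, the inhibitor that blocks caspases directly, read 2.59 and 2.63 with EMPTY and 2.69 and 2.65 with Mir195, a change of 0.06 ± 0.11 that turned to -0.03 with scaling to the median. Birc5, which encodes survivin, changed by 0.01 ± 0.17 and was negative under scaling to the median (-0.09), normexp background correction (-0.01) and the authors' table (-0.05). The lowest changes of the list were those of Endog (-0.24 ± 0.21), a mitochondrial nuclease, and Casp6 (-0.18 ± 0.11), an executioner caspase whose arrays did not overlap. The highest were those of Birc3 (0.25 ± 0.31), an inhibitor of apoptosis, and Casp8 (0.17 ± 0.16), the initiator caspase of death receptors. Without EMPTY replicate 2, Endog was at -0.04, Birc3 at -0.04 and Casp8 at 0.02.

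Upstream, 14 of 14 p53 pathway genes were tested and none was called, with 8 higher and 6 lower means and a median of 0.05. Trp53, the gene of p53 itself, read -0.18 and -0.17 with EMPTY and -0.19 and -0.69 with Mir195, so its change of -0.26 ± 0.20 came from Mir195 replicate 2 and was -0.01 without that array. Perp, a p53 target, had the lowest change of the list, -0.52 ± 0.31, with arrays that overlapped. Leaving out Mir195 replicate 2 gave -0.12, and leaving out replicate 1 of that virus gave -0.93 (adjusted p 0.0677). The stress gene Sesn1 (0.25 ± 0.13) and the p53 target Zmat3 (0.25 ± 0.16) had the highest changes, without overlap between the viruses. Sesn1 kept its arrays apart in all 14 alternatives, and Zmat3 in 9 of them, with a change of 0.08 without EMPTY replicate 2.

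Of 18 listed regulators of the BCL2 family all were tested and none was called, with 12 higher and 6 lower means and a median of 0.05. Kit, the receptor of SCF, read 1.49 and 1.50 with EMPTY and 1.66 and 1.87 with Mir195. Both Mir195 arrays were higher, and the change was 0.27 ± 0.13 with an adjusted p of 0.697, or 0.17 without Mir195 replicate 2. Usp9x, the deubiquitinase that stabilizes MCL1, had the highest change, 0.31 ± 0.20, with arrays that overlapped, and it was 0.11 without EMPTY replicate 2. Ddit3, a stress factor that can repress Bcl2, read 0.33 and 0.32 with EMPTY and 0.13 and 0.06 with Mir195, a change of -0.23 ± 0.12 with an adjusted p of 0.711. Foxo3, an activator of Bcl2l11, had the lowest change of the list, -0.26 ± 0.23, and it turned to 0.09 with normexp background correction.

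Bcl2 was listed with 10 further well known targets of the family of miR-15, miR-16 and miR-195, most of them cell cycle genes. None of the 11 was called, 8 had a higher and 3 a lower mean with miR-195, and the median change was 0.02, close to that of all tested probes. Ccnd2, which encodes cyclin D2, read 4.48 and 4.52 with EMPTY and 4.44 and 4.03 with Mir195, a change of -0.27 ± 0.17 (adjusted p 0.806) that was -0.06 without Mir195 replicate 2. Cdk6, the kinase partner of cyclin D2, changed by -0.10 ± 0.12 and by 0.04 with normexp background correction. Chek1, a checkpoint kinase, had the highest change of the list, 0.30 ± 0.19, on a dim probe, and it was 0.06 without Mir195 replicate 2.

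**Figure D4:**
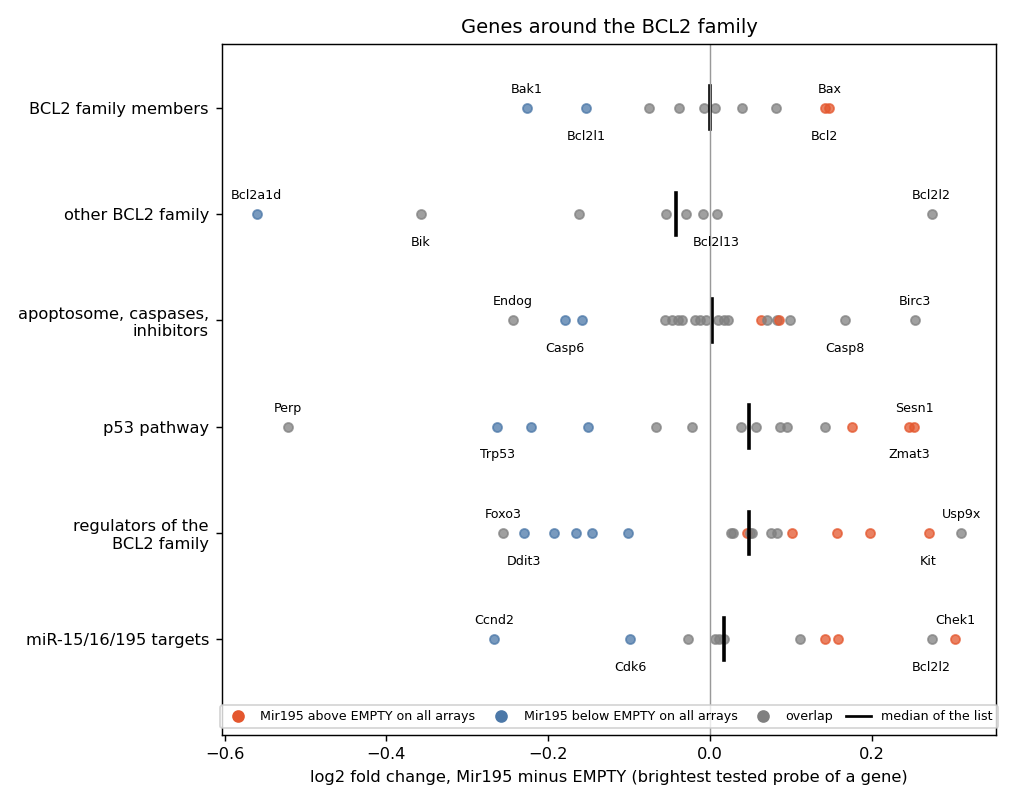
Log2 fold change, Mir195 minus EMPTY, of the brightest tested probe of each gene in the BCL2 family, in 4 lists of genes around it and among targets of the microRNA family. Points are genes, coloured where the arrays of the viruses do not overlap, and black bars are the medians of the lists, from -0.04 to 0.05. Bcl2a1d, at -0.56, is the lowest gene shown.

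The genes whose course over the 4 arrays was most like that of Bcl2 were sought among the 69 other tested genes of these lists, by the root mean square distance between log2 values centred on their own mean. Huwe1, the ubiquitin ligase of MCL1, was nearest at 0.03, read at 2.59 and 2.71 with EMPTY and 2.84 and 2.86 with Mir195. Aifm1, the apoptosis-inducing factor of mitochondria, followed at 0.03, with 2.07 and 2.09 against 2.15 and 2.18. Ywhaz, a 14-3-3 protein that binds phosphorylated BAD, came next at 0.04, with 0.18 and 0.16 against 0.24 and 0.30. All 3 were higher on both Mir195 arrays, by 0.20, 0.08 and 0.10, as Bcl2 was. The choice by likeness to Bcl2 favours that and it is no separate result. The median distance over the candidates was 0.12. Over 4 arrays such a likeness is a description only.

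Other processing left the members uncalled. Over the 14 alternative settings fitted to each member probe, the lowest adjusted p of any of them was 0.329, for Bak1 without Mir195 replicate 1. Bcl2, Bax, Bak1 and the brighter Bcl2l1 probe kept their sign in all 14, with Bax between 0.05 and 0.20, Bak1 between -0.38 and -0.08 and Bcl2l1 between -0.25 and -0.08. The sign of each of the other 9 probes turned in at least 1 setting.

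**Figure D5:**
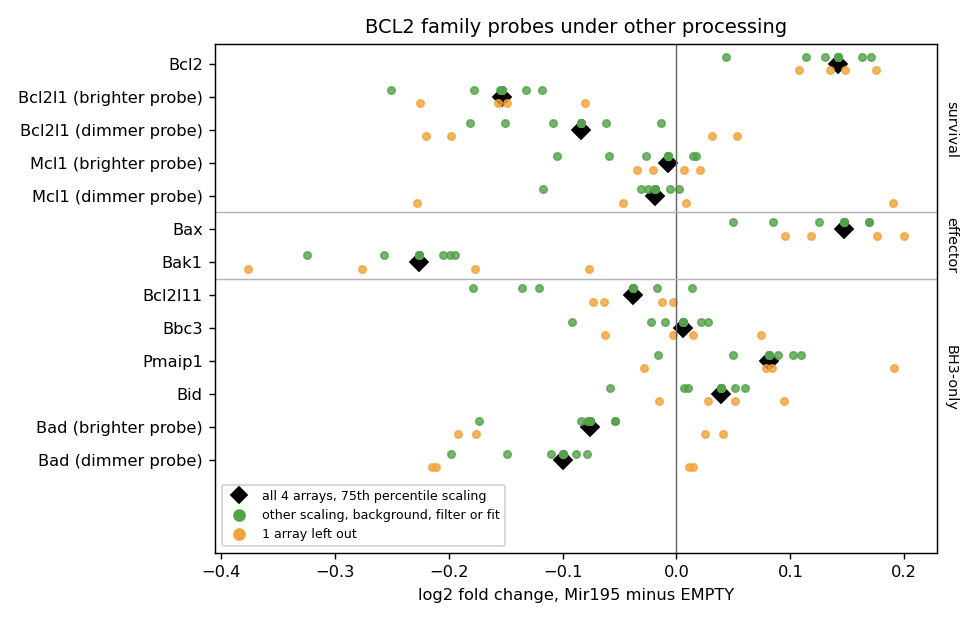
Log2 fold change of each BCL2 family probe, Mir195 minus EMPTY, with all arrays (diamonds), under other scalings, background corrections, filters and fits (green) and with 1 array left out (orange). Bcl2 and Bax stay above 0 and Bak1 and the brighter Bcl2l1 probe below 0, and the other 9 probes are seen on both sides of 0.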

How the data were processed

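RNA of 4 samples was hybridised to single-colour Agilent mouse arrays (Cy3). The authors deposited scanner files with the spot intensity after background subtraction, and a table of log2 values per probe, scaled by the 75th percentile. The submitters' processing notes name Agilent Feature Extraction 11.5.1.1. From the processed intensity, log2 values were taken, outlier spots (21 to 65 an array) were dropped, repeat spots of a probe were averaged and the array's 75th percentile was subtracted. The 23732 probes that both arrays of a virus, or of each, read well above background were tested with lmFit and eBayes of limma 3.58.1 (R 4.3.3, data.table version 1.17.8), two-sided, with Benjamini-Hochberg adjustment over all of them at 0.05. The script was tested on simulated data. Samples were grouped by their titles. The members and gene lists were chosen with earlier results of these data known. All member probes were named, and, of each other list, called genes, the 2 largest rises and falls of a brightest probe, Bcl2l2, Xiap and Birc5. Kit, Flt3, Il7r and Il2rg stand in both the regulator and the progenitor list. The number of arrays limits the precision. The alternatives were other background correction, scaling, filters and fits, the deposited log2 table, the replicate number as a block and leaving out each array.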

Additional observations from a re-analysis of the deposited data

How the results depend on the processing

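No member probe passed the threshold under any setting. The count of called probes was 0, and 0 with normexp, quantile normalization, the authors' table and the other filters. It was 3 with scaling to the median, and 0 to 904 with 1 array left out, the highest being without Mir195 replicate 1. With the replicate number as a block it was 5. The methods name a one-sample t-test for differences between groups, without saying whether it was applied to the arrays. On ratios of same-numbered arrays that test gave 1134 probes at p under 0.05 and 0 after adjustment. The same-numbered arrays deviated with r = -0.101. From 2 arrays per virus this value cannot show whether they were prepared as pairs, which the labels do not say. Crossing the numbers, a choice made after seeing the data, gave a count of 0. The median change of the member genes was -0.10 to 0.06 over all settings. It moved by less than 0.11, the SD between replicates of the median log2 level of the member genes on an array. That SD is a spread of levels and not of changes.

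The sign of 9 member probes and 8 other genes turned, and the cause was not tested. With normexp, Bcl2l11 was 0.014, Bbc3 -0.022, Birc5 -0.0082, Foxo3 0.093 and Cdk6 0.042. With quantile normalization, the brighter Mcl1 probe was 0.017. With scaling to the median, Bbc3 was -0.092, Pmaip1 -0.017, Bid -0.059, Birc5 -0.088, Xiap -0.035, Bcl2l13 -0.090 and Aifm1 -0.013. With the percentile taken over probes that every array read above background, the Mcl1 probes were 0.014 and 0.0022. In the authors' table, Bbc3 was -0.010 and Birc5 -0.054. With 1 array left out, the dimmer Bcl2l1 probe ran from -0.22 to 0.053, the Mcl1 probes from -0.034 to 0.020 and from -0.23 to 0.19, Bbc3 from -0.062 to 0.074, Pmaip1 from -0.029 to 0.19, Bid from -0.016 to 0.094, and the Bad probes from -0.19 to 0.041 and from -0.21 to 0.014. Birc5 ran from -0.13 to 0.15, Birc3 from -0.071 to 0.58, Bik from -0.83 to 0.12, Bcl2l13 from -0.14 to 0.15 and Foxo3 from -0.56 to 0.049.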
